A study of Mus musculus with 10 samples.

Results

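Long beta chain CDR3s, of 17 or more residues, were examined among the T cell receptor clonotypes of splenic regulatory T cells (Treg cells) from mice. A clonotype here is 1 entry of a library's table, in effect a distinct combination of V gene, J gene and CDR3 nucleotide sequence: only 12 beta entries repeated the combination of another entry in their library, and these were kept. Beta clonotypes were the entries whose CDR3 ended in the last 4 residues of a beta J gene, and those with at least 17 residues, counted from the first conserved cysteine to the closing phenylalanine, were the members. They numbered 3450 of 193012 beta clonotypes (1.79%) and 4615 of 266347 beta counts (1.73%), out of 387286 entries of both chains. Clonotypes of 12 to 16 residues, 179825 in all (93.2% of beta clonotypes), served as the middle-length class, and 9737 clonotypes had 11 residues or fewer.

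The CDR3 is the loop of the receptor that lies over the bound peptide. In the beta chain it is built by joining a V, a D and a J gene segment, with bases trimmed from the segment ends and others added without a template by terminal transferase. Its length therefore depends on which segments were joined, how much of each was kept and how many bases were inserted. During thymic selection very long loops are known to become rarer, and clonotypes with few inserted bases are known to recur between mice more often than others.

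The 10 libraries were made from total RNA of Treg cells isolated from spleen. 5 came from CNS4KO mice, which lack CNS4, an enhancer of Foxp3, the lineage factor of Treg cells. The other 5 came from CNS4Flox mice, whose CNS4 is flanked by loxP sites. None of the mice was treated, and any Cre driver, their age and the number of cells per library are not given in the sources used here. The labels do not state that each library is a separate mouse, so p-values measure only the spread between these samples, which may be technical.

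Beta totals ran from 19199 to 34833 counts per library, with 255 to 461 long clonotypes holding 324 to 645 counts. Intervals on shares of counts cover counting error only. The long clonotypes carried 22 TRBV names. Entries of both chains carry TRB names and the closing residues chose the members, so neither name is an independent check of the chain. A V match of 8 bases or fewer was found in 34 long clonotypes (0.986%) and in 1.08% of middle-length ones. Whether the cells were Treg cells cannot be read from receptor sequences. A single pair of libraries stood apart before any comparison: CNS4Flox replicate 3 and CNS4KO replicate 5 had 7 long amino acid clonotypes in common, against 0 to 2 in the other 44 pairs, and 760 middle-length clonotypes identical in nucleotides, against 89 to 236.

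The sequences below show how long loops were put together. The first set holds the 3 largest long clonotypes outside TRBJ1-6, the second the long amino acid clonotype found in the most libraries, in both of its nucleotide forms, and the last is a clonotype in which cores of both D genes could be read apart. In the first 5 the capitals mark the bases matched to TRBD2, and in the last they mark all bases between the V and the J match.
CNS4KO replicate 3, TRBV2 and TRBJ2-5, count 240: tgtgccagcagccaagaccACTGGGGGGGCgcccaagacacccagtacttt
CNS4KO replicate 4, TRBV16 and TRBJ2-5, count 53: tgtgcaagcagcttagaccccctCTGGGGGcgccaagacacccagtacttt
CNS4KO replicate 4, TRBV5 and TRBJ2-7, count 18: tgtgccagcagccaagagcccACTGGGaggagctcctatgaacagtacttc
CNS4Flox replicate 1 and CNS4KO replicate 5, TRBV5 and TRBJ2-4: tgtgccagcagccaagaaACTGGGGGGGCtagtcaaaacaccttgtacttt
CNS4KO replicate 3, TRBV5 and TRBJ2-4: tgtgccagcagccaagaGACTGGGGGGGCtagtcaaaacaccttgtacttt
CNS4KO replicate 1, TRBV13-1 and TRBJ2-3, count 8: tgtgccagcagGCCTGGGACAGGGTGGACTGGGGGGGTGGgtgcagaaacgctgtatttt

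Most long loops were only just long. Of the 3450, 2856 had 17 residues (82.8%), 471 had 18, 84 had 19 and 39 had 20 or more, up to 34. On each side of the limit, 16 residues made up 6.32% of beta clonotypes and 17 residues 1.48%. The members just inside continued what was seen just outside: TRBD2 was named in 57.6% of clonotypes of 16 residues and 67.2% of those of 17, inserted bases averaged 5.19 and 6.48, and TRBV5 made up 12.1% and 15.5%. In each library the distribution peaked in the middle-length class and fell steeply from 17 residues on.

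**Figure D1:**
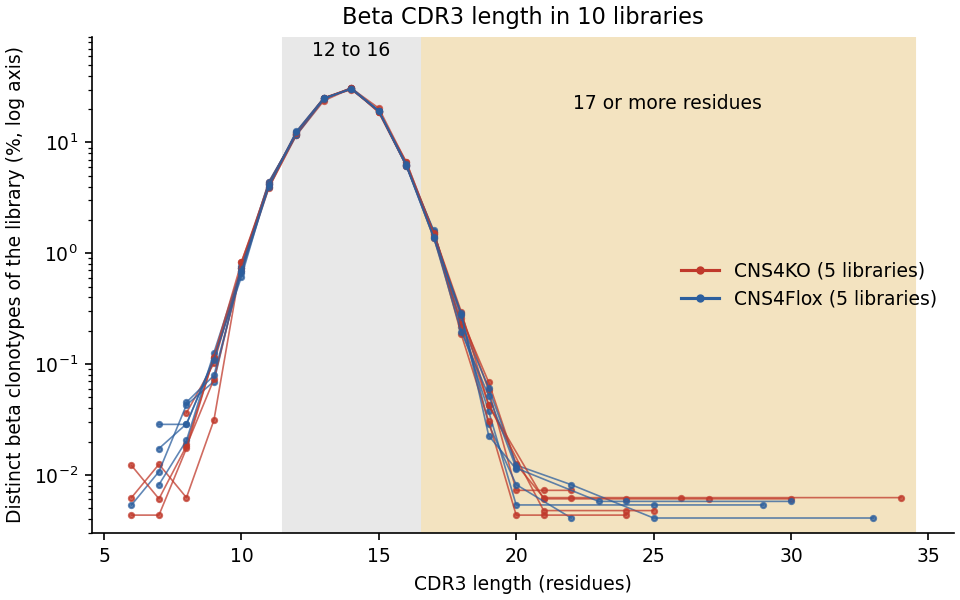
Share of a library's distinct beta clonotypes (percent, log axis) at each CDR3 length in residues, with 1 line per library in red for the 5 CNS4KO and blue for the 5 CNS4Flox libraries. Shading marks 12 to 16 residues (grey) and 17 or more (yellow). The lines of both groups lie together, with 16 residues at 6.32% and 17 residues at 1.48% of all beta clonotypes.

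All segments of the junction were longer in the long class, and the D segment took the largest single part of the difference. Since length chose the members, these values describe the class and carry no test. Over the 10 libraries the matched D segment averaged 9.73 ± 0.128 bases (SD of library means, n = 10) in long and 6.35 ± 0.0327 in middle-length clonotypes. The bases inserted between V and D averaged 3.35 ± 0.124 against 1.41 ± 0.0188, and those between D and J 3.82 ± 0.123 against 2.02 ± 0.0166. The V part measured 14.6 ± 0.105 against 13.5 ± 0.0204 bases and the J part 20.3 ± 0.0738 against 18.2 ± 0.0405. Of the mean difference of 10.2 bases, D accounted for 32.95%, both inserts together for 36.4%, J for 20.3% and V for 10.4%. TRBJ1-6 clonotypes were left out here, because their deposited J match covers only the last few bases.

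**Figure D2:**
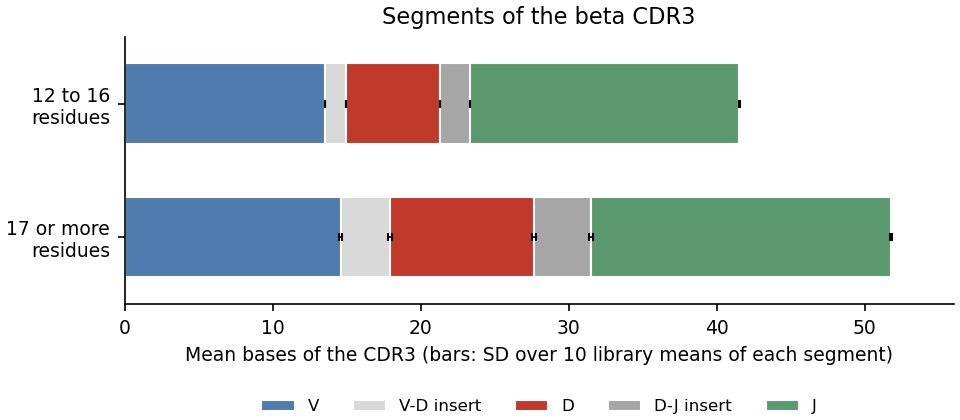
Mean bases of each segment of the beta CDR3 in the 2 length classes, stacked from V to J, in bases. Error bars are the SD of each segment over 10 library means. The D segment (red) is 9.73 bases in the long and 6.35 in the middle-length class, and both grey inserts are wider in the long class.

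Inserted bases were rarely few in long loops. At most 1 inserted base was found in 12 of 3232 long clonotypes (0.371%) and in 16.8% of middle-length ones, whereas 10 or more were found in 14.6% and 0.753%. Between V and D, 8.97% of long and 36.4% of middle-length clonotypes had no inserted base. The deposited D match reached 10 bases in 58.8% of long against 13.3% of middle-length clonotypes.

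TRBD2, the longer of the beta D genes (chromosome 6, 41542163 to 41542176, against 41533201 to 41533212 for TRBD1, GRCm38.p6), was named far more often in long loops. Its share was 67.7% ± 2.48 of long and 35.7% ± 0.473 of middle-length clonotypes (SD, n = 10). The lowest library of the long class, at 63.8%, was above the highest of the middle-length class, at 36.1%, so the ranges did not overlap. The difference of 32.02 percentage points had the same direction in 10 of 10 libraries (two-sided exact permutation test with sign flips, p = 0.00195, the smallest 10 libraries can give, adjusted p = 0.00244 over 5 values). A short D match can be named either way, so D was also read from a 6-base core between V and J. Among clonotypes with the core of only 1 D gene the difference was 21.3 points (adjusted p = 0.00244, exact permutation). Without TRBJ1-6, the TRBD1 and TRBD2 cores were present in 17.03% and 42.8% of long but 14.2% and 13.2% of middle-length clonotypes. The 21.3 points thus cover a smaller set than the 32.02, reduced more in the middle-length class. By D name, the difference against clonotypes of 15 to 16 residues was 18.5 points (adjusted p = 0.00326, exact permutation). Since the D genes differ in length, which the choice of members involves, D values mainly describe the class, here and within the TRBJ2 cluster.

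The difference was also present within the TRBJ2 cluster. TRBD2 lies downstream of the TRBJ1 genes and upstream of the TRBJ2 genes, so that it normally joins the latter. Among clonotypes with a TRBJ2 gene, TRBD2 was named in 83.2% ± 2.43 of long and 48.1% ± 0.624 of middle-length ones (SD, n = 10, higher in 10 of 10 libraries, adjusted p = 0.00244, exact permutation). Among TRBJ1 clonotypes other than TRBJ1-6, where TRBD2 is out of genomic order, it was named in 40 of 488 long (8.20%) and in 9.18% of middle-length clonotypes.

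The TRBD2 core gactgg, searched on the coding strand between the V and J matches, was present in 42.8% ± 1.76 of long and 13.2% ± 0.238 of middle-length clonotypes (SD, n = 10). The TRBD1 core gacagg was present in 17.03% ± 2.16 and 14.2% ± 0.356. The TRBD2 core was thus 3.25 times as frequent in the long class and the TRBD1 core 1.20 times. All 3 reading frames of the TRBD2 core were used: the frame read as Gly-Leu-Gly occurred in 16.1% of long clonotypes, Asp-Trp-Gly in 13.7% and Gly-Thr-Gly in 13.0%, each 2.99 to 3.66 times its share of the middle-length class. A longer stretch between V and J gives more room for any 6 bases, and this was not tested apart.

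Both D cores, TRBD1 before TRBD2 with no base in common, were read in 5 of 3232 long clonotypes (0.155%) and in 4 of 173357 middle-length ones (0.00231%). The reverse order was found in 0 long clonotypes, which allows a share of up to 0.0928%, and in 0 middle-length clonotypes. The 5 came from 5 libraries, 2 of them CNS4KO and 3 CNS4Flox, each with a different V and J combination, and had 17 to 20 residues. In another 2 long clonotypes the cores had 1 base in common, so that a separate TRBD1 segment could not be read. The largest of the 5, of 8 counts in CNS4KO replicate 1, is the last of the sequences printed above.

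TRBV use differed between the length classes for most genes that could be tested. Of the 22 TRBV names, 15 had at least 10 clonotypes of each class in at least 5 libraries, and these were compared within libraries. Past an adjusted p of 0.05, 6 of 15 were higher (40%) and 7 of 15 lower (46.7%) in the long class. A gene tested here passed through the long class, which is the smaller, so genes rare among long loops had less chance of a test. Since the V ends inside the CDR3 differ in length, which the choice of members involves, V values mainly describe the class.

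TRBV5 (chromosome 6, 41062359 to 41062803, a V segment) was the commonest V gene of long loops. It made up 15.6, 18.8, 18.4, 18.6 and 17.6% of long clonotypes in CNS4KO replicates 1 to 5 and 12, 15.8, 16.9, 13.8 and 12.7% in the CNS4Flox libraries, in the same order. Every library lay above the 5.74 to 7.86% of the middle-length class. The mean was 16.04% ± 2.504 against 6.57% ± 0.583 (SD, n = 10), a ratio of 2.44 (adjusted p = 0.00366, exact permutation, higher in 10 of 10). Of all TRBV5 beta clonotypes 4.40% were long, against 1.79% over all V genes.

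By ratio among the tested genes, TRBV2 and TRBV1 followed. TRBV2 (chromosome 6, 41047556 to 41047995) made up 7.11% ± 1.27 of long against 3.20% ± 0.480 of middle-length clonotypes, a ratio of 2.22. TRBV1 (chromosome 6, 40891296 to 40891885) made up 10.2% ± 1.73 against 5.76% ± 0.497, a ratio of 1.77. Both were higher in 10 of 10 libraries (adjusted p = 0.00366 each, exact permutation, n = 10). TRBV16 (7.14% against 5.61%, adjusted p = 0.0244, higher in 9 of 10) and TRBV13-2 (7.25% against 5.98%, adjusted p = 0.0473, higher in 7 of 10) were among the 5 commonest by exact permutation over 10 libraries. TRBV13-2 lost its call without any 1 of CNS4KO replicates 2 and 4 and CNS4Flox replicates 1 to 5 (adjusted p = 0.0554 to 0.0969, exact permutation), and TRBV16 without CNS4Flox replicate 1 (adjusted p = 0.0508, exact permutation). TRBV17, named after its values were seen, completed the 6 at 3.14% against 1.92%.

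Among the tested genes that were lower, TRBV12-1 (chromosome 6, 41113567 to 41114067) had the smallest ratio, 0.545. It made up 3.34% ± 0.874 of long against 6.13% ± 0.957 of middle-length clonotypes. TRBV15 (3.38% against 5.77%), TRBV19 (4.87% against 7.33%), TRBV13-3 (3.46% against 4.93%) and TRBV31 (7.99% against 10.9%) were also lower in 10 of 10 libraries (adjusted p = 0.00366 each, exact permutation). TRBV31, the V gene that lies downstream of the J genes (chromosome 6, 41557693 to 41558371), thereby moved from the commonest V gene of the middle-length class to the third of the long class. TRBV3 and TRBV12-2 were lower in 9 of 10, and TRBV29 and TRBV13-1 missed the threshold. Against 15 to 16 residues TRBV15 turned, to 0.046 points higher, and TRBV13-2 stood only 0.094 points higher (adjusted p = 0.910 each, exact permutation over 10 libraries).

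Ratios were also set beside the length of the germline V end, as a description. The longest V match deposited inside the CDR3 served as its measure. Over the 15 tested genes its Spearman correlation with the ratio was 0.482. Whether it accounts for the ratios was not tested. Of 8 tested genes whose longest match was 17 bases, 5 were higher and 2 lower. All 3 with a longest match of 14 or 15 bases, TRBV31, TRBV12-1 and TRBV12-2, were lower. TRBV3 and TRBV15, with 17 bases, kept all of them in 16.2% and 26.3% of their long clonotypes, against 49.5% for TRBV5. The 7 TRBV names too rare to test gave 13 to 76 long clonotypes each in all, from TRBV30 with 13 to TRBV26 with 76. TRBV24 gave 57 long and 932 middle-length clonotypes. In CNS4KO and CNS4Flox libraries it averaged 1.56 and 1.73% of long against 0.574 and 0.483% of middle-length clonotypes. TRBV20 averaged 0.446 and 0.915% against 3.03 and 3.34%, and TRBV26 2.07 and 2.35% against 5.12 and 5.34%. TRBV30, TRBV14 and TRBV4 were also lower in both groups and TRBV23 was slightly higher. None of these was tested, so the highest and lowest ratios given are those of tested genes.

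Among the TRBJ genes tested, use shifted from TRBJ2-7, which has the shortest of their J segments, mainly to other TRBJ2 genes. TRBJ2-7 (chromosome 6, 41543810 to 41543856, 47 bases) made up 2.93, 1.96, 5.18, 5.73 and 4.53% of long clonotypes in the CNS4KO libraries, from replicate 1 to 5, and 4.57, 3.90, 4.17, 4.14 and 3.33% in the CNS4Flox libraries. In the middle-length class it was the commonest J gene, at 18.2 to 20.6%, with no overlap. The ratio was 0.211 (4.04% ± 1.09 against 19.2% ± 0.828, n = 10, adjusted p = 0.00293, exact permutation). Since J segments differ in length, which the choice of members involves, J values mainly describe the class.

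Of the 9 TRBJ genes tested, 5 were higher (55.6%) and 2 lower (22.2%) in the long class. TRBJ2-2 made up 13.5% against 5.72% (ratio 2.36), TRBJ2-3 16.4% against 8.07% (2.03), TRBJ1-6 6.30% against 3.62% (1.74), TRBJ2-4 18.5% against 11.8% (1.56) and TRBJ2-1 14.2% against 10.5% (1.35). These 5 were higher in 10 of 10 libraries (adjusted p = 0.00293 each, exact permutation). TRBJ1-3 was lower in 8 of 10 libraries, at 4.43% against 5.70% (adjusted p = 0.01004, exact permutation). TRBJ2-5 stood at 13.0% against 12.8% and TRBJ1-4 at 5.43% against 6.02%, with adjusted p of 0.508 and 0.338 by exact permutation over 10 libraries. The longest J match inside the CDR3 had a Spearman correlation of 0.272 with the ratio over 8 tested genes, without TRBJ1-6. TRBJ2-5, TRBJ2-3 and TRBJ2-4, whose whole J segments span 49 bases, had ratios of 1.02, 2.03 and 1.56. Whether J length accounts for the ratios was not tested. As a whole the TRBJ2 cluster held 79.7% ± 2.16 of long and 68.1% ± 0.941 of middle-length clonotypes. TRBJ1-1, TRBJ1-2 and TRBJ1-5, with 50, 34 and 59 long clonotypes in all, were too rare among long loops to test. In CNS4KO and CNS4Flox libraries TRBJ1-1 averaged 1.70 and 1.28% of long against 9.27 and 9.07% of middle-length clonotypes. TRBJ1-2 averaged 1.46 and 0.534% against 4.48 and 4.57%, and TRBJ1-5 1.71 and 1.70% against 2.81 and 2.86%. The counts of higher and lower genes leave them out. Some TRBJ calls depended on the reference. Against 15 to 16 residues TRBJ2-1 stood at -0.276 points (adjusted p = 0.685, exact permutation), while TRBJ2-5 became higher, by 1.78 points, and TRBJ1-4 lower, at -2.43 points (adjusted p = 0.00251 each, exact permutation). Weighted by count, TRBJ2-1 had an adjusted p of 0.0552 (exact permutation), and at 18 or more residues TRBJ2-4 had one of 0.0527.

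**Figure D3:**
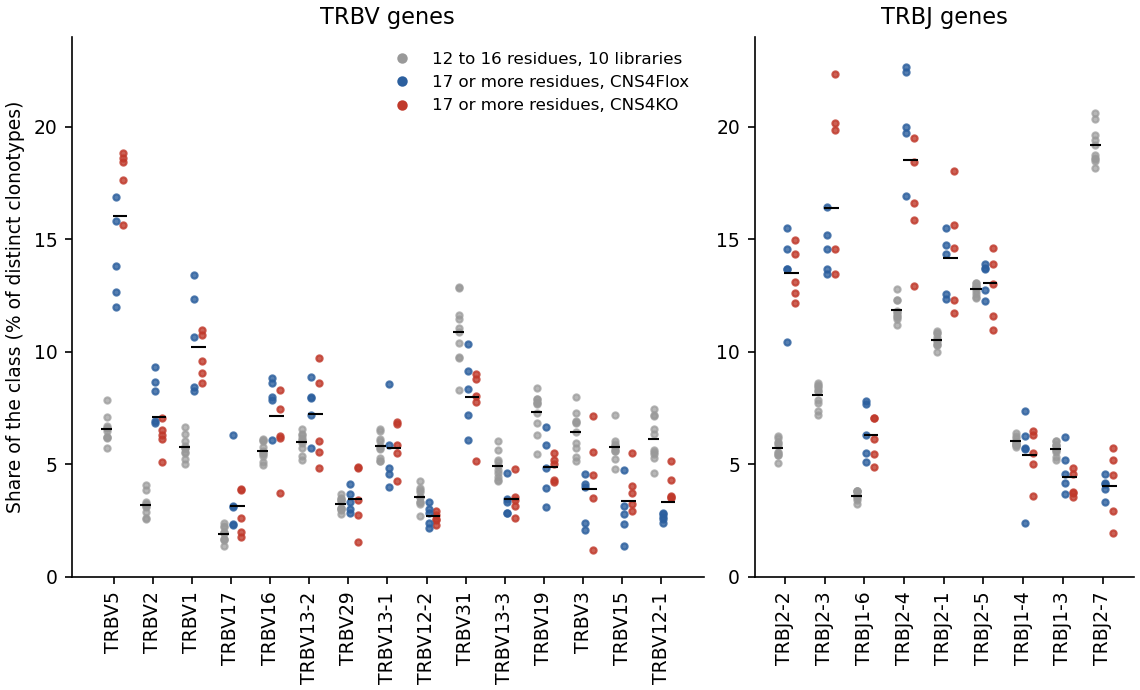
Share of distinct clonotypes of a length class (percent) carrying each tested TRBV (left) and TRBJ gene (right), ordered by the ratio of long to middle length. Each point is a library, grey for 12 to 16 residues and blue (CNS4Flox) or red (CNS4KO) for 17 or more, and lines are means of 10 libraries. TRBV5 rises from a mean of 6.57% to 16.04%, and TRBJ2-7 falls from 19.2% to 4.04%.

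Residue content was compared over the loop, leaving out the first 4 and last 4 residues, which V and J mostly encode. Without TRBJ1-6, the V and J parts averaged 14.6 and 20.3 bases in long and 13.5 and 18.2 in middle-length clonotypes. Each is more than 4 residues need, so the loop examined still held V and J bases. The choice of members involves V, D and J use, so residue values mainly describe the class. Glycine, the smallest residue and the main one encoded by the D genes, made up 24.5% ± 0.504 of loop residues in the long and 21.9% ± 0.182 in the middle-length class (SD, n = 10). Alanine (8.84% against 7.43%), proline (4.03% against 3.18%), tryptophan (3.19% against 2.37%) and cysteine (0.0703% against 0.00865%) were also higher. These 5 of 20 residues (25%) were higher in 10 of 10 libraries (adjusted p = 0.00391 each, exact permutation). Another 7 of 20 (35%) were lower, led by threonine (5.21% against 6.49%), tyrosine (3.39% against 4.63%), asparagine (7.34% against 8.50%), aspartate (7.08% against 7.96%) and glutamine (6.81% against 7.29%), each in 10 of 10 libraries (adjusted p = 0.00391 each, exact permutation).

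The residue values depended on the window. Over all CDR3 residues the direction turned for alanine, cysteine, threonine, asparagine and aspartate. Against 15 to 16 residues glutamine turned, to 0.124 points higher, while alanine, at 0.0778 points higher, and aspartate, at -0.125 points, lost their calls (adjusted p = 0.695 and 0.386, exact permutation). With each clonotype weighted by its count, aspartate and glutamine lost theirs, at -0.215 and -0.0236 points (adjusted p = 0.951 and 0.986, exact permutation). Cysteine rested on few loops: 21 long clonotypes (0.609%) held a cysteine inside the loop, against 91 middle-length ones (0.0506%), and with only good V and J matches its adjusted p was 0.0841 (exact permutation). A pair of adjacent glycines was present in 55.5% of long loops and 24.1% of middle-length ones, and a tryptophan in 28.2% and 13.5%. The examined loop averaged 9.25 residues in the long class and 5.82 in the middle-length class, so that long loops had more positions for either. Mean net charge per loop was -0.368 and -0.282, summed over these unequal numbers of positions and not taken per residue.

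Long clonotypes were seldom shared. An amino acid clonotype (same V gene, J gene and CDR3 residues) was taken as shared if another library held it. From replicate 1 to 5, 2.61, 0.784, 2.93, 1.15 and 3.53% of long amino acid clonotypes were shared in the CNS4KO libraries and 0.573, 0.868, 2.31, 2.07 and 1.33% in the CNS4Flox libraries. In the middle-length class the share was 20.3 to 24.2%, with no overlap. The means were 1.82% ± 1.02 and 22.2% ± 1.13, and the share was lower for long clonotypes in 10 of 10 libraries (n = 10, adjusted p = 0.00244, exact permutation). Each library's share was found against the other libraries, so the 10 values are not independent, as the test takes them to be. Against 15 to 16 residues the difference was -10.5 points in place of -20.4, and by nucleotide identity it was -5.91 points (adjusted p = 0.00326 and 0.00244, exact permutation).

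Sharing fell step by step with length. It averaged 29.7% at 12 residues, 23.7% at 14, 14.3% at 15, 6.29% at 16, 2.13% at 17 and 0.441% at 18, and 0 of 84 clonotypes of 19 residues were shared, which allows a share of up to 3.57%. Inserted bases rise over the same lengths, so sharing was also set out by their number, as a description. With 1 to 3 inserted bases 7.08% ± 4.42 of long and 32.6% ± 1.30 of middle-length clonotypes were shared (SD, n = 10). With 4 to 6 the shares were 2.68% ± 1.64 and 11.4% ± 1.17, and with 7 to 9 they were 0.765% ± 1.08 and 2.35% ± 1.01. At 10 or more they were 0.351% ± 0.741 and 0.717% ± 0.632. The mean was lower for long clonotypes in each of these classes of insertion, but at 7 or more bases the spreads of the 2 classes overlapped. Each class of insertion spans several numbers of bases, which were not matched between long and middle-length clonotypes.

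**Figure D4:**
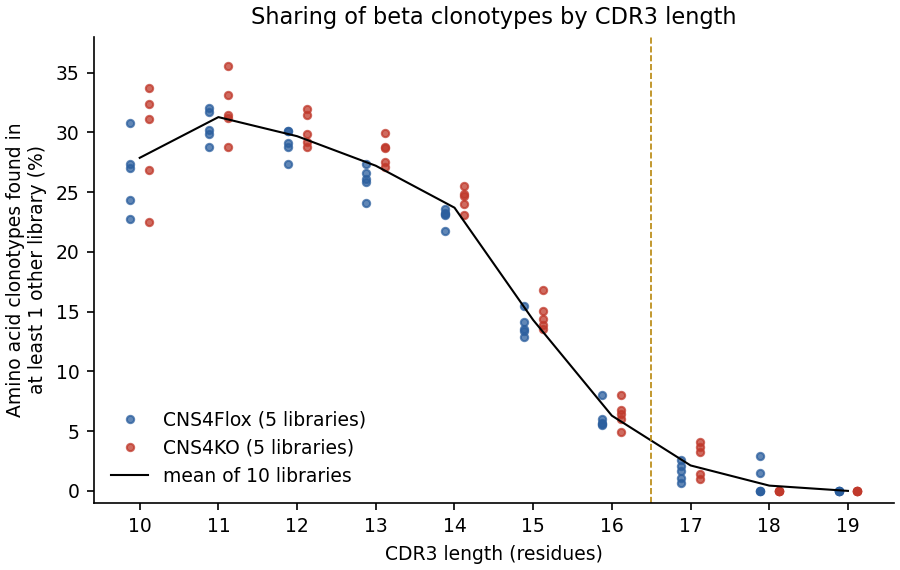
Percent of a library's beta amino acid clonotypes found in at least 1 other library, by CDR3 length in residues. Points are libraries (blue CNS4Flox, red CNS4KO), the black line is the mean of 10 libraries and the dashed line marks the limit of 17 residues. The mean falls from 29.7% at 12 residues to 2.13% at 17 and 0.441% at 18.

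Of 3414 long amino acid clonotypes, 31 were found in more than 1 library, 30 of them in 2 and 1 in 3, whereas 2 middle-length clonotypes were found in all 10. The most widespread long clonotype, TRBV5 with TRBD2 and TRBJ2-4, had a count of 1 in each of CNS4Flox replicate 1, CNS4KO replicate 3 and CNS4KO replicate 5. The forms printed above differ at the V-D border, and both carry at most 1 inserted base on either side of a D match of 11 or 12 bases. TRBV5 was the V gene of 16 of the 31 shared clonotypes (51.6%), against 15.3% of those in 1 library, and TRBJ2-4 the J gene of 12 (38.7%), against 18.1%. Inserted bases averaged 4.81 in the shared and 7.20 in the others. Different nucleotide sequences encoded 18 of the 31, and 13 had the same nucleotides in all libraries.

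The other 4 of the 5 ranked highest by libraries and count were each in 2 libraries. TRBV16 with TRBJ2-4 (7 counts in all), TRBV14 with TRBJ2-7 (4 counts) and TRBV19 with TRBJ2-2 (4 counts) were shared with the same nucleotides by CNS4Flox replicate 3 and CNS4KO replicate 5. That pair held 6 of its 7 shared long clonotypes as identical nucleotide sequences, against at most 1 in any other pair. The remaining one, another TRBV5 with TRBJ2-4 (5 counts), was in CNS4KO replicates 2 and 3, in 3 nucleotide forms. Without the pair of libraries the difference in sharing between the length classes was -17.03 points (adjusted p = 0.00977, exact permutation). How sequences came to be common to the pair was not tested.

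Clone sizes of long loops were close to those of the middle-length class. Of the 3450 long clonotypes, 2870 had a count of 1, 445 of 2, 126 of 3 to 9 and 9 of 10 or more. Counts per clonotype averaged 1.35 ± 0.295 in long and 1.39 ± 0.189 in middle-length clonotypes (SD, n = 10, adjusted p = 0.639, exact permutation, lower in 8 of 10). CNS4KO replicate 3 and CNS4Flox replicate 1 were the exceptions. Without CNS4KO replicate 3 the difference was -0.106 counts (adjusted p = 0.00781, exact permutation), and without only its largest long clonotype -0.116 (adjusted p = 0.00391, exact permutation). Single counts made up 83.1% ± 4.68 of long and 79.3% ± 6.20 of middle-length clonotypes, higher for long ones in 10 of 10 libraries (adjusted p = 0.00244, exact permutation).

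The largest long clonotype, the first sequence printed above, had a count of 240 in CNS4KO replicate 3. It held 37.2% of that library's long counts and 0.954% of its beta counts, and ranked second among all its beta clonotypes. The next largest had counts of 53 and 18 in CNS4KO replicate 4 and 19 and 16 in CNS4KO replicate 5. Of the 9 with 10 counts or more, 8 were in CNS4KO libraries and 1, of 13 counts, in CNS4Flox replicate 2. The largest of the other libraries had 11 counts in CNS4KO replicate 1, 8 in CNS4KO replicate 2, 6 in CNS4Flox replicate 1, 5 in CNS4Flox replicates 3 and 5 and 3 in CNS4Flox replicate 4. None of the 9 had more than 1 neighbour in its library that differed by 1 base with the same V and J.

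The share of long loops did not differ between the groups beyond the spread of the libraries. They made up 1.81% ± 0.108 of beta clonotypes in CNS4KO and 1.78% ± 0.0981 in CNS4Flox libraries (SD, n = 5 each, exact permutation p = 0.714, adjusted p = 0.833 over 10 values). Their share of beta counts was 1.54, 1.69, 2.56, 1.60 and 1.63% in CNS4KO and 1.88, 1.77, 1.57, 1.57 and 1.62% in CNS4Flox replicates 1 to 5 (exact permutation p = 0.794). CNS4KO replicate 3 was the high one, at 2.56% (95% Wilson interval 2.38 to 2.77%). Without its largest clonotype it stood at 1.63%, and the difference between the groups turned from 0.122 to -0.0658 points.

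Counts per long clonotype were higher in CNS4KO. They were 1.35, 1.27, 2.09, 1.60 and 1.32 in CNS4KO and 1.17, 1.18, 1.20, 1.13 and 1.16 in CNS4Flox replicates 1 to 5, so the groups did not overlap. The means were 1.53 ± 0.338 and 1.17 ± 0.0246 (SD, n = 5 each, two-sided exact permutation p = 0.00794, the smallest 5 against 5 can give, adjusted p = 0.0397). Single counts likewise made up 79.1% ± 2.57 of long clonotypes in CNS4KO and 87.1% ± 1.76 in CNS4Flox, with no overlap (exact permutation p = 0.00794, adjusted p = 0.0397). The middle-length class moved the same way, with 1.53 ± 0.142 against 1.24 ± 0.0723 counts per clonotype and no overlap. The long minus middle difference did not separate the groups (exact permutation p = 0.833), so no difference particular to long loops was shown. With all libraries thinned to 19199 beta counts the values for long loops were 1.43 ± 0.321 and 1.13 ± 0.0148 (n = 5 each, adjusted p = 0.0397, exact permutation).

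The adjusted p for counts per long clonotype passed 0.05 on leaving out any 1 of CNS4Flox replicates 1 to 5 (0.106 to 0.159, exact permutation), as did that for single counts (0.0794 to 0.159). Without the largest clonotype the difference was 0.204 counts in place of 0.359 (adjusted p = 0.0397, exact permutation), and without CNS4KO replicate 3 it was 0.219. At 18 or more residues the difference was 0.141 counts (adjusted p = 0.278, exact permutation), and over clonotypes with at least 2 counts it was 1.19 (exact permutation p = 0.00794, adjusted p = 0.0794). That unadjusted p is the smallest 5 against 5 can give, as with all clonotypes. Its adjusted p was higher because single counts, the other value at that p with all clonotypes, cannot differ in this setting. CNS4KO libraries averaged 18065 beta clonotypes and 27693 beta counts, and CNS4Flox libraries 20537 and 25576 (n = 5 each). In these libraries more cells of a clone and more receptor RNA per cell cannot be told apart. Nor can they be told apart from differences in input cells or in reads per molecule, which are not given.

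**Figure D5:**
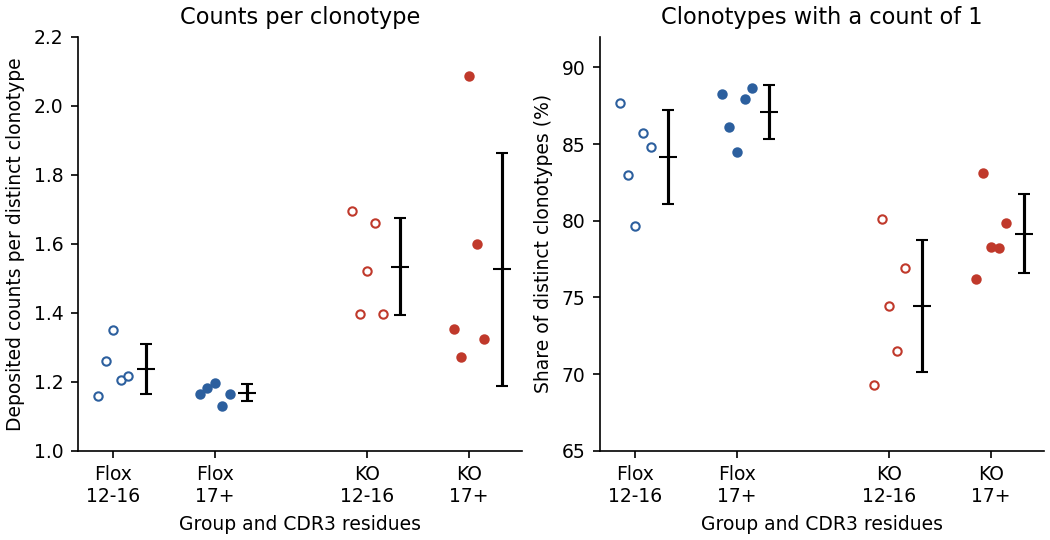
Deposited counts per distinct clonotype (left, axis from 1) and percent of clonotypes with a count of 1 (right, axis from 65%) in each library, by group and length class, with means and SD (5 libraries each). Filled points are CDR3s of 17 or more residues and open points those of 12 to 16. All CNS4KO libraries lie above all CNS4Flox libraries in counts per clonotype in both length classes, with long means of 1.53 and 1.17.

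Other properties of long loops did not pass the threshold between the groups. Inserted bases averaged 7.28 ± 0.148 in CNS4KO and 7.05 ± 0.122 in CNS4Flox libraries (n = 5 each, exact permutation p = 0.0397, adjusted p = 0.132), while middle-length clonotypes had 3.44 ± 0.0395 and 3.44 ± 0.0177. TRBD2 was named in 68.4% ± 2.28 and 66.9% ± 2.69 of long clonotypes (exact permutation p = 0.349, n = 5 each). Mean length was 17.27 ± 0.0636 and 17.24 ± 0.0377 residues (exact permutation p = 0.5, n = 5 each). Shared long clonotypes made up 2.201% ± 1.18 and 1.43% ± 0.750 (exact permutation p = 0.238, n = 5 each).

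V, J and residue use of long loops was compared between the groups in a pair of ways. In the first, the long minus middle difference of each feature was set between groups by exact permutation, and 0 of 15 TRBV genes, 0 of 9 TRBJ genes and 0 of 20 residues passed after adjustment (0% in each family), against 3, 0 and 1 at an unadjusted p under 0.05. The smallest p that 5 against 5 can give is 0.00794 (exact permutation). At that p a single gene or residue could not pass the adjustment in any of these families. The counts of 0 therefore do not show that the groups are alike. TRBV5 came nearest, with 17.8% ± 1.31 of long clonotypes in CNS4KO and 14.2% ± 2.08 in CNS4Flox (difference of differences 3.38 points, exact permutation p = 0.00794, adjusted p = 0.0595), together with TRBV2 at 6.22% ± 0.716 and 8.004% ± 1.08 (difference of differences -2.17 points, the same p values by exact permutation). The tested long minus middle values did not overlap between the groups for either gene: TRBV5 stood at 9.89 to 12.1 points in CNS4KO and 5.81 to 9.81 in CNS4Flox, and TRBV2 at 2.44 to 3.82 and 4.06 to 6.15. The long shares by themselves did overlap, with TRBV5 at 16.9% in CNS4Flox replicate 3 and 15.6% in CNS4KO replicate 1.

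In the second, counts summed by V or J gene and length class were tested with the edgeR quasi-likelihood test with Benjamini-Hochberg adjustment. Of 58 TRBV by class features and 33 TRBJ by class features, 0 passed in either direction (0%), among them 15 and 9 long features, with 1 long feature of each table at an unadjusted p under 0.05. DESeq2 on the same counts also called 0. The median log2 fold change of the long features was 0.01 for TRBV and -0.03 for TRBJ, against -0.03 and -0.02 over all features tested. Long TRBJ2-4 had the smallest p of the TRBJ features, at 0.241% ± 0.0341 of beta counts in CNS4KO and 0.347% ± 0.0527 in CNS4Flox (log2 fold change -0.52, SE 0.15, edgeR adjusted p = 0.140). Without CNS4KO replicate 3 it passed (edgeR log2 fold change -0.59, adjusted p = 0.0440).

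Long TRBV12-1 (0.0660% ± 0.0117 against 0.0432% ± 0.00810 of beta counts) had an edgeR log2 fold change of 0.59 and adjusted p of 0.474. The same gene moved the same way in middle-length clonotypes (edgeR log2 fold change 0.35, adjusted p = 0.256). In those of 11 residues or fewer it did so too (edgeR log2 fold change 0.48, adjusted p = 0.474). Its long minus middle share differed by -0.257 points between the groups (exact permutation p = 0.476), so no difference particular to long loops was shown. Long TRBV2 and long TRBJ2-5 had log2 fold changes of 1.16 and 0.94 (edgeR adjusted p = 0.474 and 0.587), which rested on the clonotype of 240 counts. Counting each distinct clonotype once gave -0.32 and -0.04, and leaving out CNS4KO replicate 3 gave -0.43 and 0.08. Of single beta amino acid clonotypes, 666 were in at least 5 libraries and could be tested, none of them long, and edgeR called 0 (0%), against 37 at an unadjusted p under 0.05. In the looser set of 4634 clonotypes in at least 3 libraries, the 1 long clonotype had a log2 fold change of 0.57 (edgeR adjusted p = 0.866).

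The longest loops differed in make-up from the rest. Of the 39 with 20 residues or more, 35 had a count of 1, and 16 had a V match of 8 bases or fewer. The 8 bases tcttgggg, searched on the coding strand of the CDR3, were found in 19 of the 39 (48.7%), against 0.147% of those with 17 to 19 residues and 0.171% of the middle-length class. Among clonotypes other than TRBJ1-6, 17 of the 39 shared a stretch of 24 bases or more, outside the V and J matches, with a clonotype of another V gene, J gene or library. They fell into families: 8 clonotypes of 19 to 24 residues in 7 libraries had 43 bases in common, 5 of 20 to 25 residues in 5 libraries had 42, and 6 of 17 to 30 residues in 5 libraries, with 1 V name and 4 J names between them, had 37. The 3 longest CDR3s had 34 residues in CNS4KO replicate 1 (TRBV30), 33 in CNS4Flox replicate 2 (TRBV13-3) and 30 in CNS4Flox replicate 4 (TRBV20), each with a count of 1. The origin of these stretches was not tested. They made up 39 of 3450 members. Keeping only clonotypes with a V match over 8 bases and a J match of at least 12 also left out TRBJ1-6. It gave a TRBD2 difference of 35.2 points and a sharing difference of -20.6 points (adjusted p = 0.00244 each, exact permutation over 10 libraries). Of the 39, 19 passed this filter, so it does not show the class without them.

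A further 9 long clonotypes, in 4 libraries and 5 of them in CNS4Flox replicate 3, began with the same 15 bases, of which V explained only the first few. That start was found in 2016 entries of the tables, 1937 of which had no beta J end. The example below, of 18 residues and 3 counts in CNS4Flox replicate 3, was named TRBV2, with the shared start in capitals.
CNS4Flox replicate 3, TRBV2 and TRBJ2-4, count 3: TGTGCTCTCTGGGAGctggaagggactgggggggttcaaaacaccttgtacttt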

How the data were processed

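The deposited tables, 1 per library, list clonotypes of both receptor chains amplified together from total RNA. Per the file headers each row holds a count, whose unit of reads or molecules is not given in the sources used here, the deposited fraction of the library's total count, the CDR3, the V, D and J names, and the positions where their matches end or start. The genome build was mm10, per the submitters' processing notes. The aligner and the clonotype caller are not given in the sources used here. Gene coordinates came from RefSeq's GRCm38.p6 annotation, by symbol.

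All entries carried TRB names, so the chain was set by the CDR3 end. CDR3s ending in PLYF were assigned to TRBJ1-6, which the J names never gave, and were left out of inserted bases and segment lengths. Bases that no V, D or J match covered were taken as inserted. By the deposited positions at least 1 base always lay between D and J, so that this insert may hold 1 templated base. Clonotypes with no named D were left out of D values. The beta total was taken as the depth of a library.

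The members and lists were chosen with earlier results of these data known. Long and middle-length classes were compared within libraries by two-sided exact permutation with sign flips (1024 arrangements) and groups by exact permutation of the samples (252 assignments), with Benjamini-Hochberg adjustment over 5 class values, 10 group values, 15 TRBV genes, 9 TRBJ genes or 20 residues, at a threshold of 0.05. V and J genes were tested with at least 10 clonotypes of each class in at least 5 libraries. Counts summed by gene and length class, where 5 or more samples had 10 counts or more, were tested with edgeR 4.0.16 in R 4.3.3 (quasi-likelihood, beta total as library size), with DESeq2 1.42.0, TMM scaling and no filter as alternatives. Other values used Python 3.11.15, numpy 2.4.6, pandas 2.3.3 and scipy 1.17.1, and figures used matplotlib 3.10.9. The tests were checked on simulated data. The TRBV genes named were the 5 commonest in long loops and, of those past the threshold with 1 sign in all 10 libraries, the 5 with the highest and the 5 with the lowest ratio. All tested TRBJ genes, the 5 largest residue differences each way, the long features of smallest p in the count tests, the clonotypes in the most libraries and the largest clonotype of each library were also named.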

Additional observations from a re-analysis of the deposited data

Results flagged for a closer look

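The long share of beta counts in CNS4KO replicate 3 was 2.56%, against 1.54 to 1.69% in the other 4 CNS4KO libraries, a gap wide enough to set that library apart in its group. Its largest long clonotype, of 240 counts, accounted for 37.2% of its long counts, and without that clonotype the library stood at 1.63%. It was the only one of 80 group values examined to stand apart in this way, and chance alone sets apart about 1 in 20.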

How the results depend on the processing

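The differences between length classes in sharing, TRBD2 share, TRBD2 share among TRBJ2 clonotypes and single counts kept their direction and stayed past the threshold in all settings run. With 1 library left out they ranged from -19.6 to -18.8, 31.5 to 32.5, 34.8 to 35.4 and 3.47 to 4.17 percentage points. The results below did not, and the cause was not tested except where a setting itself removes libraries or genes.

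At 18 or more residues the CNS4KO minus CNS4Flox difference was -0.00984 points in the share of beta counts, 0.141 in counts per long clonotype, -0.673 points in sharing, -3.11 points in TRBD2, -8.38 points in single counts (adjusted p = 0.278, exact permutation) and -0.156 in the long minus middle counts per clonotype. There the long minus middle counts per clonotype were -0.143 (adjusted p = 0.00732, exact permutation), and 1 TRBV gene of 1 tested and 1 TRBJ gene of 2 tested passed. Leaving out single counts gave 1.19 for counts per long clonotype (exact permutation p = 0.00794, adjusted p = 0.0794), -0.0970 points for sharing, 0.667 points for the long minus middle sharing between groups and 0.127 for the long minus middle counts. With that setting no TRBV gene had enough clonotypes for a test, 1 TRBJ gene of 2 tested passed and 7 residues passed. Leaving out both CNS4Flox replicate 3 and CNS4KO replicate 5 gave 0.417 counts per long clonotype and -8.78 points of single counts (adjusted p = 0.143 each, exact permutation, where the smallest unadjusted p is 0.0286). Against 15 to 16 residues the long minus middle sharing between groups was 0.0921 points, TRBV15 stood at 0.046, TRBJ2-1 at -0.276 and glutamine at 0.124 points. Weighted by count, mean length differed by -0.00140 residues between the groups. Without the largest long clonotype, left out after seeing the data, the differences were -0.0658 points in the share of counts, -0.0921 in the long minus middle counts between groups and -0.116 in those between classes. Over all CDR3 residues alanine stood at -0.0861, cysteine at -1.24, aspartate at 0.163, asparagine at 0.335 and threonine at 0.132 points. With each distinct clonotype counted once, the edgeR log2 fold change of long TRBV2 was -0.32 and of long TRBJ2-5 -0.038.

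With 1 library left out, the group difference ranged from -0.0680 to 0.189 points in the share of counts, from 0.219 to 0.423 in counts per long clonotype, from -8.95 to -7.22 points in single counts and from -0.0810 to 0.147 in the long minus middle counts. Between classes the latter ranged from -0.106 to -0.00462. The edgeR count of TRBJ by class features ranged from 0 to 1, and the log2 fold change of long TRBV2 from -0.43 to 1.40. Apart from leaving out single libraries, 119 of the other values and counts and 161 of those of single genes and residues kept direction and side of the threshold. Among the former, 11 turned direction, 5 lost the threshold, 2 gained it and 4 counts moved. Among the latter, 10 turned, 15 lost the threshold and 2 gained it.

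No paired analysis was possible because the labels give no replicate numbers and the replicates were numbered in accession order. Other settings of the test of single clonotypes were not run, since no long clonotype was in at least 5 libraries. At 255 to 461 long clonotypes per library, shared clonotypes and rare genes rest on few members.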
